A study of Mus musculus with 9 samples.

Results

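The genes described here are 8 markers of pancreatic alpha cells, Irx1, Irx2, Ttr, Gc, Slc7a2, Slc38a5, Dpp10 and Loxl4. They were taken by symbol from a table of read counts for 52459 gene symbols. The list was chosen with earlier results of these data known. Its genes were followed across 9 RNA sequencing libraries of mouse islets of Langerhans. All 8 were in the table, and 7 were among the 16826 genes with enough counts to be tested. Loxl4 was not. The islets came from mice of 12 weeks in 3 genotype groups of 3 libraries each, which are wild type (+/+, here WT), heterozygous (+/-, here db/+) and db/db (-/-). All 9 libraries carry the strain label BKS.Cg-Dock7m +/+ Leprdb/J, so the db allele of the leptin receptor gene Lepr is the labelled difference between groups. The labels used here give no sex for the mice and do not say whether a library is 1 animal or a pool. The p values therefore measure the spread between these libraries, which may be technical.

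Alpha cells are the glucagon-secreting cells of the islet, and glucagon acts on the liver to raise glucose output and to promote breakdown of amino acids. Amino acids, arginine and glutamine among them, stimulate alpha cells, which makes transporters such as Slc7a2 and Slc38a5 part of how these cells sense their surroundings. Other markers of the alpha cell are transcription factors of the Iroquois family (Irx1, Irx2), plasma carrier proteins better known from the liver (Ttr, Gc), a partner of potassium channels (Dpp10) and a matrix enzyme (Loxl4). Islets in rodents consist mostly of beta cells, so in a whole-islet library these genes report on a minority of cells, and some are also made by other islet cells.

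In db/db islets the 8 markers did not move together. Gc, Slc38a5 and Ttr were higher than in WT, with Gc up 11.1-fold, while Irx1, Irx2, Slc7a2 and Dpp10 were lower by 1.93-fold to 2.61-fold. Levels in db/+ were close to those in WT for most of them. Because the whole islet was sequenced, fewer alpha cells and less RNA per alpha cell cannot be told apart here.

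The promoters of Gc and Slc38a5 are shown because these are the members with the largest rises. Each run is the 250 bases before the transcription start in RefSeq's annotation of GRCm38.p6, read 5′ to 3′ in the direction of the gene, from chr5:89457899-89458148 on the minus strand for Gc and chrX:8271131-8271380 on the plus strand for Slc38a5. Bases just after the start matched an annotated transcript of another assembly for Slc38a5 but not for Gc, so the start and direction of the Gc window rest on the RefSeq coordinates alone. Capitals mark matches to the motifs searched.
Gc: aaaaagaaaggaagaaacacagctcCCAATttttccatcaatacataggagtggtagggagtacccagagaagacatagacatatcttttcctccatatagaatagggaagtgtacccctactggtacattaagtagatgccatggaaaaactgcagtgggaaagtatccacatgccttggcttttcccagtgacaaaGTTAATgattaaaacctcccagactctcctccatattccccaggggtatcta
Slc38a5: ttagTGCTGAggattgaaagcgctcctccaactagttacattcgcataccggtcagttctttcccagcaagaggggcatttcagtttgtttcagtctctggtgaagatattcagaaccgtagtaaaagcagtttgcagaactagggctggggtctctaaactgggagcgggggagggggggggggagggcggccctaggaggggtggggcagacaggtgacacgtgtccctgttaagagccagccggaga

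The motifs were searched on both strands as plain letters in all 32851 promoter windows of that length: the HNF1 core GTTAAT, the FOXA core TGTTTAC, the HNF4 core CAAAGTCC, the MAF core TGCTGA, the homeodomain core TAATTA, the TATA box TATAAA and the CCAAT box CCAAT. Gc had the HNF1 core at -52 to -47 from the start and a CCAAT box at -225 to -221. Slc38a5 had the MAF core at -246 to -241. These letters are common, since 6.43% of all windows held the HNF1 core, 33.8% the CCAAT box and 16.1% the MAF core. Windows were also in the table for Irx2, which had a CCAAT box at -43 to -39, and for Dpp10 and Loxl4, which had no match. The Irx2 (chr13:72628570-72628819) and Dpp10 (chr1:124045560-124045809) windows lie inside the annotated spans of their genes. They therefore precede internal starts. The Gc window had a GC content of 42%, below the median of 52.4% over all windows, and the Slc38a5 (55.2%), Irx2 (68.4%), Dpp10 (65.2%) and Loxl4 (76%) windows lay above it. A match is a run of letters and not evidence of binding.

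Total counts were 8860024 to 11734886 per library. Levels below are counts scaled to the TMM-normalised library size (CPM), and a count of 3, the most that a reading of 0 allows, corresponds to 0.238 to 0.412 CPM, for counting error only. Fold changes are log2 ± SE, and adjusted p values come from edgeR's quasi-likelihood F-test, adjusted by Benjamini-Hochberg across every tested gene. Lepr itself was at 1.72 to 3.17 CPM in the WT libraries, 1.52 to 4.37 in the db/+ libraries and 2.05 to 9.47 in the db/db libraries, and a whole-gene count does not check the db mutation. The libraries were also uneven in other ways, and some of these follow the groups. WT 2 had the lowest glucagon (Gcg) level of the control libraries. Summed Y-linked genes were at 219 to 417 CPM across WT and db/+, at 176 CPM in db/db 1, and much lower in db/db 2 (1.11 CPM) and db/db 3 (0.108 CPM), so the groups differ in sex make-up. Xist was at 0.162 to 0.506 CPM in the db/+ libraries and 308 to 948 CPM in the db/db libraries. In WT it was high in WT 1 and WT 3, which, like db/db 1, hold both signals. The rows Gm42418 and Lars2 together took 0.0558% to 17.9% of the counts in db/db. They took 1.89% to 2.58% in WT and 0.0220% to 0.0237% in db/+. With library totals in place of TMM, the median log2 fold change of all genes in db/db against WT moved from 0.01 to -0.22, and the calls went from 3670 higher and 3348 lower to 2176 higher and 5317 lower. The direction of every member was the same under both.

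Of the 7 tested members, 7 passed the threshold (adjusted p under 0.05) in db/db against WT, where 41.7% of all tested genes did. Of these, 3 were higher, a direction called for 21.8% of all genes, and 4 were lower, a direction called for 19.9%. In db/db against db/+ the counts were again 7 of 7, with 3 higher and 4 lower, beside 40.3% of all genes called, 20.6% higher and 19.7% lower. These comparisons share the db/db libraries. The median log2 fold change of the members was -0.94 against WT and -0.92 against db/+, beside 0.01 for all tested genes in both. With members in both directions, these medians are the values of Irx1 against WT and Irx2 against db/+, not a shared fall. The summed level of all members was 1155 to 1659 CPM in WT, 1541 to 1864 CPM in db/+ and 2180 to 2563 CPM in db/db. Ttr was the largest part of this sum in every library. Each tested member had at least 34 counts in every library, so none entered the test through a single group.

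**Figure D1:**
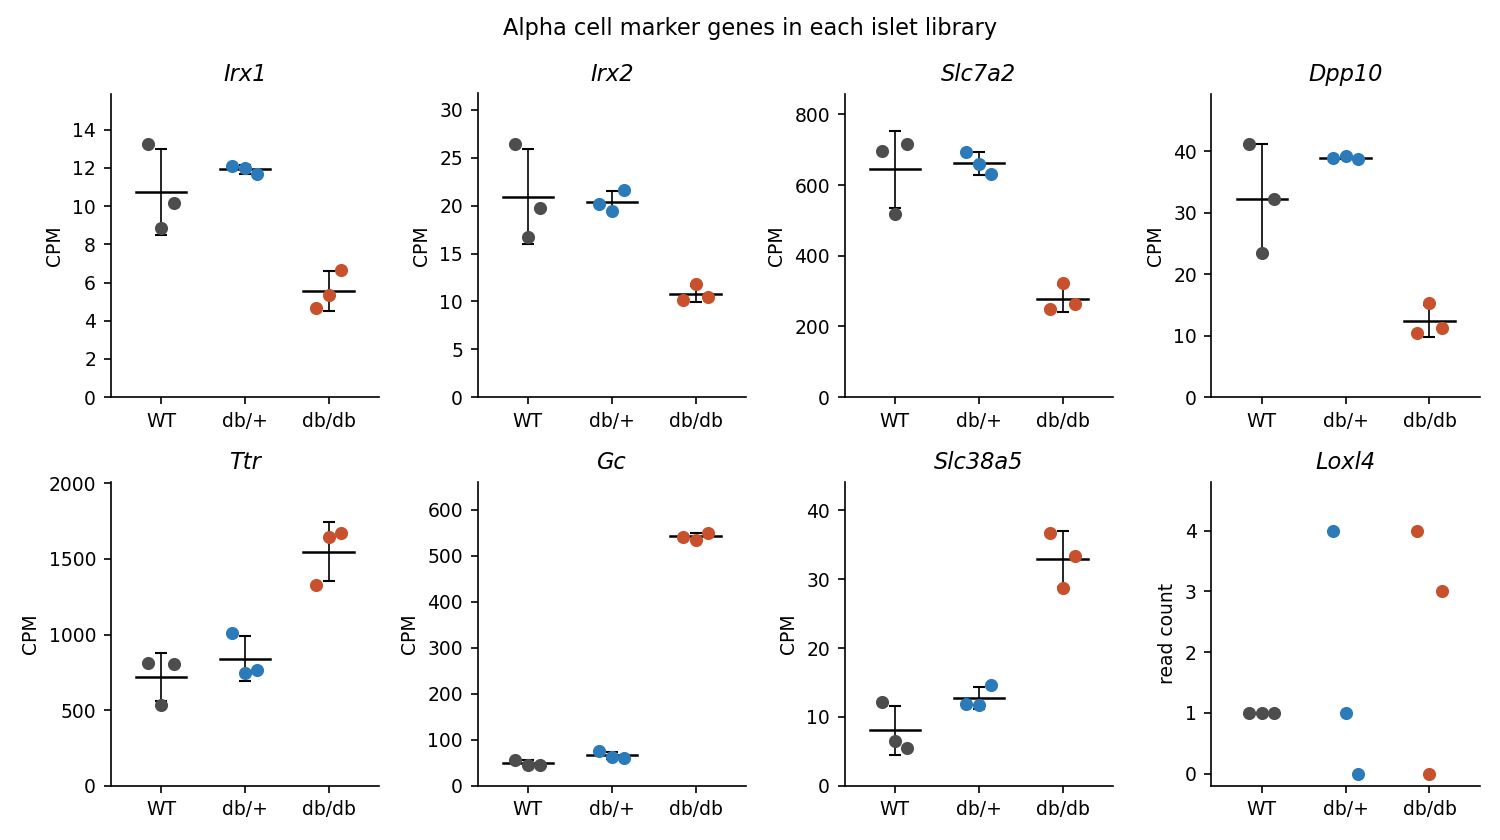
Level of each marker in the 9 libraries, as CPM on linear axes starting at 0, with Loxl4 as raw read counts. Points are libraries, horizontal bars the group mean and vertical bars 1 SD (n = 3 per group, none drawn for Loxl4). The db/db libraries lie below all others for Irx1, Irx2, Slc7a2 and Dpp10 and above all others for Ttr, Gc and Slc38a5.

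Irx1 and Irx2 encode homeodomain transcription factors that in the adult islet are enriched in alpha cells, and they are neighbours in the same Iroquois cluster (chromosome 13, 71958232 to 71963723 for Irx1 and 72624430 to 72634196 for Irx2, GRCm38.p6). Irx1 was at 13.3, 8.85 and 10.2 CPM in the WT libraries, 12.1, 12.0 and 11.7 CPM in the db/+ libraries and 4.67, 5.33 and 6.68 CPM in the db/db libraries. The highest db/db library was below the lowest WT library, and the db/+ libraries were tightly grouped within the WT range. Irx1 thus fell by 0.94 ± 0.19 on the log2 scale against WT (adjusted p = 0.0012) and by 1.09 ± 0.18 against db/+ (adjusted p = 3.97e-04).

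Irx2 was at 26.4, 16.7 and 19.7 CPM in the WT libraries, 20.1, 19.5 and 21.6 CPM in the db/+ libraries and 10.2, 11.8 and 10.5 CPM in the db/db libraries. Again no db/db library reached a control library. The log2 fold change was -0.96 ± 0.16 against WT (adjusted p = 3.46e-04) and -0.92 ± 0.16 against db/+ (adjusted p = 4.99e-04). With the first letter of the sample title as a covariate, Irx2 (-0.78, adjusted p = 0.0906) and Irx1 (-0.96, adjusted p = 0.0740) no longer passed against db/+. The predicted gene Gm20554 overlaps Irx2, and without a known strand setting their reads cannot be told apart.

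Another Iroquois gene went the other way. Irx3 was at 0.406 to 0.555 CPM in the WT libraries, 0.243 to 0.571 CPM in the db/+ libraries and 1.72 to 2.88 CPM in the db/db libraries, a log2 fold change of 2.16 ± 0.40 against WT (adjusted p = 7.93e-04) that rests on at most 21 counts per library. Irx4, Irx5 and Irx6 had 0 to 4 counts in any library and were not tested.

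Slc7a2 encodes the cationic amino acid transporter CAT2, which takes up arginine, lysine and ornithine (chromosome 8, 40862341 to 40922070). It was at 697, 519 and 716 CPM in the WT libraries, 695, 659 and 631 CPM in the db/+ libraries and 249, 322 and 265 CPM in the db/db libraries. WT 2 was the lowest control library and still stood above every db/db library. The log2 fold change was -1.21 ± 0.13 against WT (adjusted p = 8.82e-06) and -1.25 ± 0.13 against db/+ (adjusted p = 7.18e-06).

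Slc38a5 encodes SNAT5, a sodium-coupled transporter of glutamine, asparagine, histidine and other neutral amino acids (chromosome X, 8271381 to 8280179). In mice it is known to be induced in alpha cells when glucagon signalling is blocked and blood amino acids rise. It was at 12.1, 6.50 and 5.49 CPM in the WT libraries, 11.8, 11.7 and 14.6 CPM in the db/+ libraries and 36.8, 28.7 and 33.4 CPM in the db/db libraries. The db/db libraries were all above the control libraries, and WT 1 lay with db/+ rather than with the other WT libraries. The log2 fold change was 2.01 ± 0.25 against WT (adjusted p = 1.06e-04), a 4.03-fold rise, and 1.37 ± 0.23 against db/+ (adjusted p = 0.00103), a 2.59-fold rise. With the first letter of the sample title as a covariate, the value against db/+ was 2.15.

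Slc38a5 is also expressed in pancreatic acinar cells, the enzyme-secreting cells that surround islets. The summed level of 10 acinar markers was 4935 to 9204 CPM in the WT libraries, 11331 to 25954 CPM in the db/+ libraries and 13451 to 38014 CPM in the db/db libraries, and none of the 10 was at 0 in any library. In each group the library with the highest acinar sum (WT 1, db/+ 3 and db/db 1) was also the highest for Slc38a5. Of the 10 acinar markers, 5 were higher in db/db against WT, and in db/db against db/+, 0 passed edgeR's test and 1 was under an unadjusted p of 0.05. With the acinar level as a covariate the log2 fold change of Slc38a5 against WT was 1.43 and still past the threshold. The part of acinar RNA in the level of Slc38a5 was not tested. Slc38a5 is X-linked, and WT 2, with Xist at 0.722 CPM, lay between WT 1 and WT 3, with Xist at 565 and 596 CPM. Xist was at 0.162 to 0.506 CPM in the db/+ libraries and 308 to 948 CPM in the db/db libraries. Sex make-up and genotype therefore cannot be told apart for this gene in db/db against db/+.

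These transporters belong to families of 24 listed SLC7 and SLC38 genes with their heavy-chain partners, of which 22 were tested. In db/db against WT, 10 were higher, 2 lower and 10 did not pass, beside 21.8% of all genes higher and 19.9% lower. The median log2 fold change of the 22 was 0.28. Against db/+ the counts were 10 higher, 3 lower and 9 not passed. The lower pair against WT was Slc7a2 and Slc7a8, the neutral amino acid exchanger LAT2, which went from 79.4 ± 13.4 to 38.0 ± 9.37 CPM (SD, n = 3; -1.07 ± 0.18, adjusted p = 0.00138). The rises with the smallest adjusted p were Slc7a11, the cystine-glutamate exchanger, from 2.62 to 3.33 CPM in the WT libraries to 27.3 to 42.7 CPM in the db/db libraries (3.47 ± 0.32, adjusted p = 1.58e-05), and Slc38a10, from 417 to 743 CPM (0.83 ± 0.10, adjusted p = 2.13e-05).

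The 2 genes here were named after their values were seen, because they encode close relatives of CAT2. Slc7a1, which encodes CAT1, was at 76.6 to 86.8 CPM in WT and 107 to 121 CPM in db/db (0.48 ± 0.08, adjusted p = 4.88e-04). Slc7a3, which encodes CAT3, was at 0.993 to 1.22 CPM in WT and 4.31 to 6.31 CPM in db/db (2.22 ± 0.29, adjusted p = 3.98e-05). Against db/+ both were also called higher. Slc7a6, which also carries cationic amino acids, did not pass against WT (0.25 ± 0.10, adjusted p = 0.0529).

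**Figure D2:**
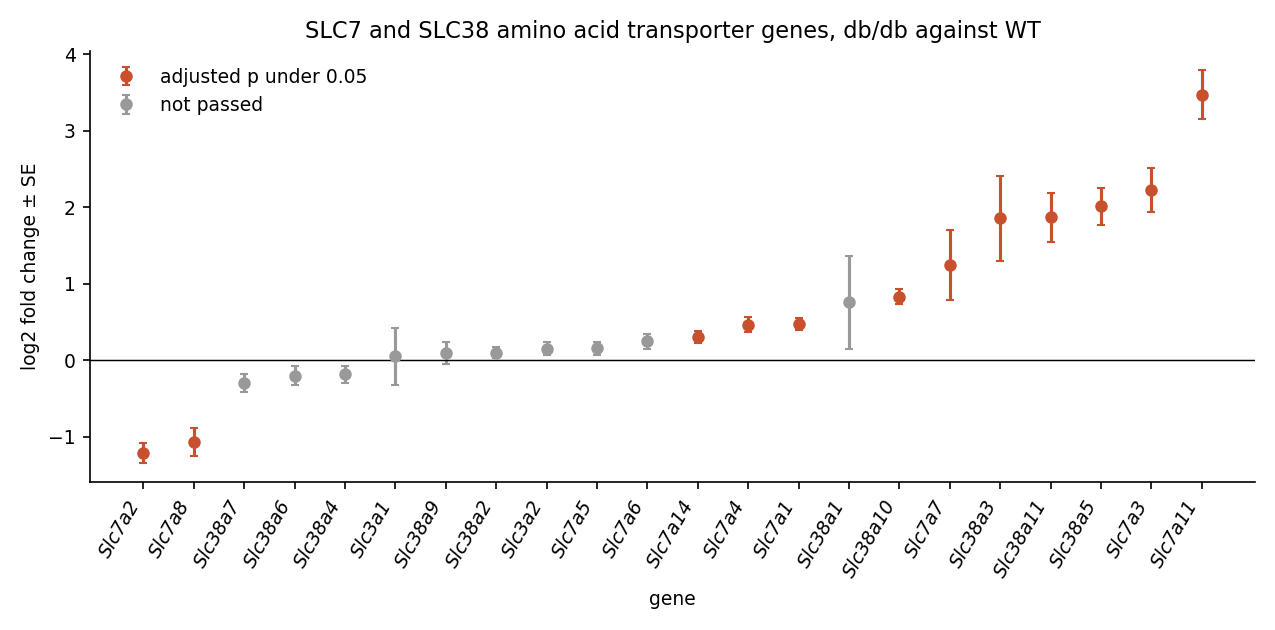
Log2 fold change ± SE in db/db against WT for the 22 tested SLC7 and SLC38 transporter genes and partners, in order of size. Red points passed an adjusted p of 0.05. Slc7a2 has the lowest value at -1.21 and Slc38a5 stands below 2 others at 2.01, with Slc7a11 highest at 3.47.

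Gc encodes the vitamin D-binding protein, a plasma carrier of the albumin family that binds vitamin D metabolites and actin (chromosome 5, 89417511 to 89457898). It was at 56.4, 45.4 and 44.8 CPM in the WT libraries, 74.6, 62.8 and 59.5 CPM in the db/+ libraries and 541, 535 and 550 CPM in the db/db libraries. The lowest db/db library held 535 CPM where the highest control library held 74.6 CPM, and the db/db libraries differed little among themselves (542 ± 7.83 CPM, SD, n = 3). The log2 fold change was 3.47 ± 0.11 against WT (adjusted p = 2.04e-10) and 3.05 ± 0.11 against db/+ (adjusted p = 7.58e-10), or 11.1-fold and 8.26-fold. By p, Gc ranked 2 of 16826 genes against WT and 3 against db/+.

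Ttr encodes transthyretin, which carries thyroxine and, with retinol-binding protein, retinol in plasma (chromosome 18, 20664209 to 20674326). It was at 812, 535 and 805 CPM in the WT libraries, 1011, 744 and 764 CPM in the db/+ libraries and 1328, 1645 and 1674 CPM in the db/db libraries. The lowest db/db library was above the highest control library, which was db/+ 1. The log2 fold change was 1.11 ± 0.18 against WT (adjusted p = 6.82e-04) and 0.88 ± 0.18 against db/+ (adjusted p = 0.00286). Against db/+ the call was lost with summed Y-linked CPM as a covariate (0.58, adjusted p = 0.128) and with the first letter of the sample title (0.63, adjusted p = 0.247). The predicted gene Gm16090 overlaps Ttr.

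Both carriers are abundant liver products, so liver genes were read beside them. The summed level of 8 hepatocyte markers was 2.44 to 3.89 CPM in the WT libraries and 3.43 to 4.53 CPM in the db/+ libraries. In every db/db library this sum was higher, at 7.56 to 10.02 CPM, where Gc was at 535 CPM or more. Of the 8, 2 had enough counts to be tested, and 1 of these, the apolipoprotein gene Apoa2, was higher in both db/db comparisons. Apoa2 was at 0.813 to 1.90 CPM in WT and 3.70 to 5.71 CPM in db/db (1.96 ± 0.37, adjusted p = 8.72e-04). Fga, a fibrinogen chain, had 0 counts in all WT and db/+ libraries and at most 2 in db/db. The albumin gene Alb, a relative and chromosomal neighbour of Gc, was at 0.632 to 2.06 CPM in WT and 1.36 to 4.67 CPM in db/db (1.04 ± 0.52, adjusted p = 0.125). Afp and Afm, the other relatives, had at most 4 counts in any library. The part of liver-type expression in the levels of Gc and Ttr was not tested.

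Among 5 tested carriers of thyroid hormone and retinol, 3 were higher and 1 lower in both db/db comparisons. Serpina7, which encodes thyroxine-binding globulin, was at 6.59, 5.24 and 8.33 CPM in the WT libraries and 372, 310 and 365 CPM in the db/db libraries (5.70 ± 0.19, adjusted p = 1.22e-08). Rbp4, the retinol-binding protein that pairs with transthyretin, was lower, at 59.4, 53.5 and 63.6 CPM in WT and 27.4, 30.6 and 24.8 CPM in db/db (-1.09 ± 0.11, adjusted p = 3.21e-06). Transthyretin and its retinol partner thus moved in opposite directions in the same libraries.

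In the vitamin D pathway, 4 of 8 listed genes were tested, and with Gc 2 were higher and 1 lower in both db/db comparisons. Vdr, the vitamin D receptor, was at 274, 240 and 223 CPM in the WT libraries, 261, 272 and 248 CPM in the db/+ libraries and 56.0, 66.1 and 64.1 CPM in the db/db libraries (-1.98 ± 0.09 against WT, adjusted p = 4.33e-09). Cyp27b1, which makes the active form of the vitamin, was low throughout, at 1.44 to 2.54 CPM in WT and 2.47 to 4.58 CPM in db/db (0.83 ± 0.31, adjusted p = 0.0445).

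Dpp10 encodes a dipeptidyl peptidase-like protein without peptidase activity that binds Kv4 potassium channels (chromosome 1, 123332138 to 124845815, with 4 overlapping genes). It was at 41.2, 23.4 and 32.2 CPM in the WT libraries, 38.9, 39.2 and 38.8 CPM in the db/+ libraries and 10.4, 15.4 and 11.3 CPM in the db/db libraries. WT varied more than db/+, and no db/db library reached the lowest WT library. The log2 fold change was -1.38 ± 0.20 against WT (adjusted p = 2.93e-04) and -1.65 ± 0.20 against db/+ (adjusted p = 7.96e-05).

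The list of Dpp10, its relatives and its channel partners had 14 genes, all tested, and in db/db against WT 4 were higher, 3 lower (Dpp10, Dpp7 and Dpp9) and 7 not passed. Of all tested genes, 41.7% passed in that comparison. Dpp7, a lysosomal peptidase, was at 43.2 to 51.2 CPM in WT and 24.8 to 28.2 CPM in db/db (-0.81 ± 0.10, adjusted p = 2.86e-05). Dpp9, a cytosolic peptidase, was at 101 to 131 CPM in WT and 72.4 to 79.3 CPM in db/db (-0.60 ± 0.10, adjusted p = 4.98e-04). Both also passed against db/+, as did Dpp10. Dpp6, the closest relative with the same channel role, was at 19.1 to 24.99 CPM in the WT libraries, 26.0 to 32.7 CPM in the db/+ libraries and 32.8 to 37.6 CPM in the db/db libraries. It rose against WT (0.71 ± 0.12, adjusted p = 4.87e-04) and did not pass against db/+ (0.24, adjusted p = 0.136). Dpp4, the enzyme that inactivates incretin hormones, was at 40.5 to 42.9 CPM in WT and 86.2 to 101 CPM in db/db (1.15 ± 0.09, adjusted p = 5.78e-07).

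Loxl4, a lysyl oxidase-like enzyme that cross-links collagen and elastin, was near the limit of detection in these libraries (chromosome 19, 42592279 to 42612806). Its counts were 1, 1 and 1 in the WT libraries, 4, 1 and 0 in the db/+ libraries and 4, 0 and 3 in the db/db libraries. No group stood apart, and at this depth no difference was detectable. Of its relatives, Lox, Loxl1 and Loxl3 were higher in db/db against WT and Loxl2 did not pass. Loxl3 was at 0.722 to 1.51 CPM in WT and 2.85 to 4.25 CPM in db/db (1.71 ± 0.34, adjusted p = 0.00118). The summed level of 7 stellate, fibroblast and pericyte markers was 208 to 317 CPM in the WT libraries, 215 to 336 CPM in the db/+ libraries and 716 to 1939 CPM in the db/db libraries, and 5 of the 7 were higher. Their part in the lysyl oxidase levels was not tested.

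**Figure D3:**
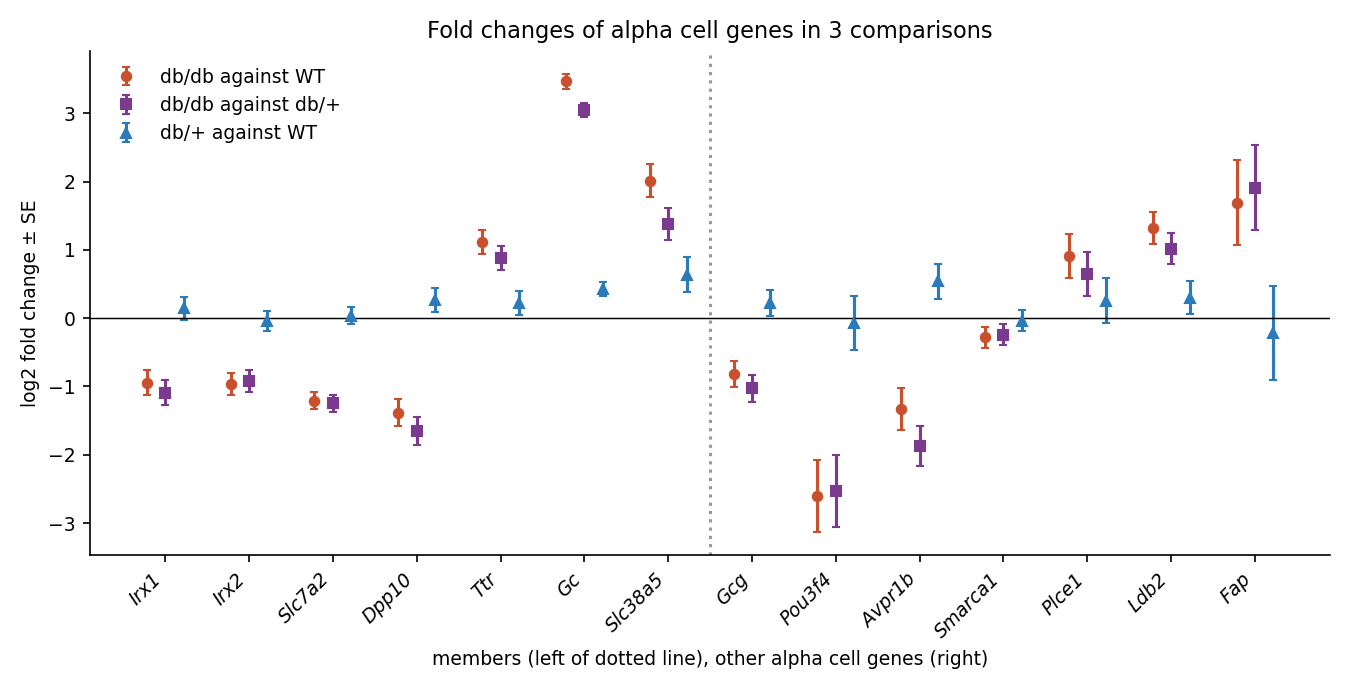
Log2 fold change ± SE of the 7 tested markers and 7 other tested alpha cell genes in db/db against WT (circles), db/db against db/+ (squares) and db/+ against WT (triangles). Gc stands at 3.47 against WT, the highest value among these genes, and Pou3f4 is the lowest at -2.60.

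The other alpha cell genes served to place the markers. Of 8 described, 7 were tested and Slc17a6 had 0 to 6 counts. In both db/db comparisons 2 were higher, 3 lower and 2 not passed. Gcg, the glucagon gene and the defining marker of the cell, was at 17572, 9521 and 15790 CPM in the WT libraries, 18650, 15506 and 15711 CPM in the db/+ libraries and 7851, 8963 and 7604 CPM in the db/db libraries. Every db/db library was below every control library, with WT 2 closest to them. Gcg fell by 0.81 ± 0.19 on the log2 scale against WT (adjusted p = 0.00625) and by 1.03 ± 0.19 against db/+ (adjusted p = 0.00165). The call against WT was lost with the acinar level (-0.83, adjusted p = 0.117) and with summed Y-linked CPM (-0.90, adjusted p = 0.0687) as a covariate.

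Pou3f4, an alpha cell transcription factor, had 39, 25 and 21 counts in WT and 0, 6 and 4 counts in db/db (-2.60 ± 0.53, adjusted p = 0.00149). Avpr1b, the vasopressin receptor of the alpha cell, was at 3.61 to 5.08 CPM in WT and 0.961 to 2.73 CPM in db/db (-1.33 ± 0.30, adjusted p = 0.00309), and did not pass with the acinar covariate (-1.01, adjusted p = 0.121). With summed Y-linked CPM as a covariate the value was -2.24 for Avpr1b and -6.05 for Pou3f4. The Y-linked level varied within a group mainly in db/db, at 176, 1.11 and 0.108 CPM. Fits with this covariate thus rest largely on db/db 1 against the other db/db libraries, and Pou3f4 had 0 counts in db/db 1. The 2 that were higher were Ldb2, a LIM domain-binding cofactor, at 2.62 to 3.43 CPM in WT and 6.68 to 7.96 CPM in db/db (1.31 ± 0.23, adjusted p = 5.30e-04), and Fap. Fap was at 4.94, 0.743 and 1.94 CPM in db/db, overlapping WT at 0.406 to 1.03 CPM, and differed by 1.69 ± 0.62 on the log2 scale (adjusted p = 0.0440). Without db/db 1 it was 0.82 (adjusted p = 0.262), and the call was also lost without WT 1, WT 2, WT 3, db/+ 2 or db/db 3. With the first letter of the sample title as a covariate, Ldb2 (1.15, adjusted p = 0.121) and Pou3f4 (-2.20, adjusted p = 0.112) no longer passed against db/+. Fap is also a marker of activated fibroblasts, and their part in its level was not tested. The highest library was db/db 1 for Loxl1 too, at 15.2 CPM, and db/db 3 for Lox, at 6.14 CPM beside 5.35 CPM in db/db 1.

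Glucagon gene level gives a scale within each library that does not depend on normalisation, and the markers were read as a ratio to it. With 3 libraries against 3, the exact two-sided permutation test cannot give less than 0.1, which becomes 0.21 after Benjamini-Hochberg adjustment over the 21 ratios compared. No ratio can pass the threshold in this design. Per unit of Gcg, Irx1 differed by -0.18 on the log2 scale in db/db against WT (exact permutation p = 0.5) and Irx2 by -0.17 (exact permutation p = 0.4), and the libraries of both groups overlapped. Slc7a2 was at -0.44 and Dpp10 at -0.60 (exact permutation p = 0.1 for each), with no overlap. Ttr was at 1.90, Slc38a5 at 2.88 and Gc at 4.25 (exact permutation p = 0.1 for each), also with no overlap.

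Against db/+ the same ratios were -0.09 for Irx1, 0.11 for Irx2, -0.23 for Slc7a2, -0.65 for Dpp10, 1.92 for Ttr, 2.40 for Slc38a5 and 4.08 for Gc (exact permutation p = 0.8 for Irx1, 0.5 for Irx2 and 0.1 for each of the others). In this comparison too the groups overlapped for Irx1 and Irx2 and not for the others. How many of all tested genes show no overlap, in level or in this ratio, was not measured. A gene of unchanged level would be higher in this ratio, because Gcg was lower in db/db. Whether the markers differ from each other in these ratios was not tested. WT varied most in Gcg, with an SD of 0.472 on the log2 scale beside 0.149 in db/+ and 0.126 in db/db.

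**Figure D4:**
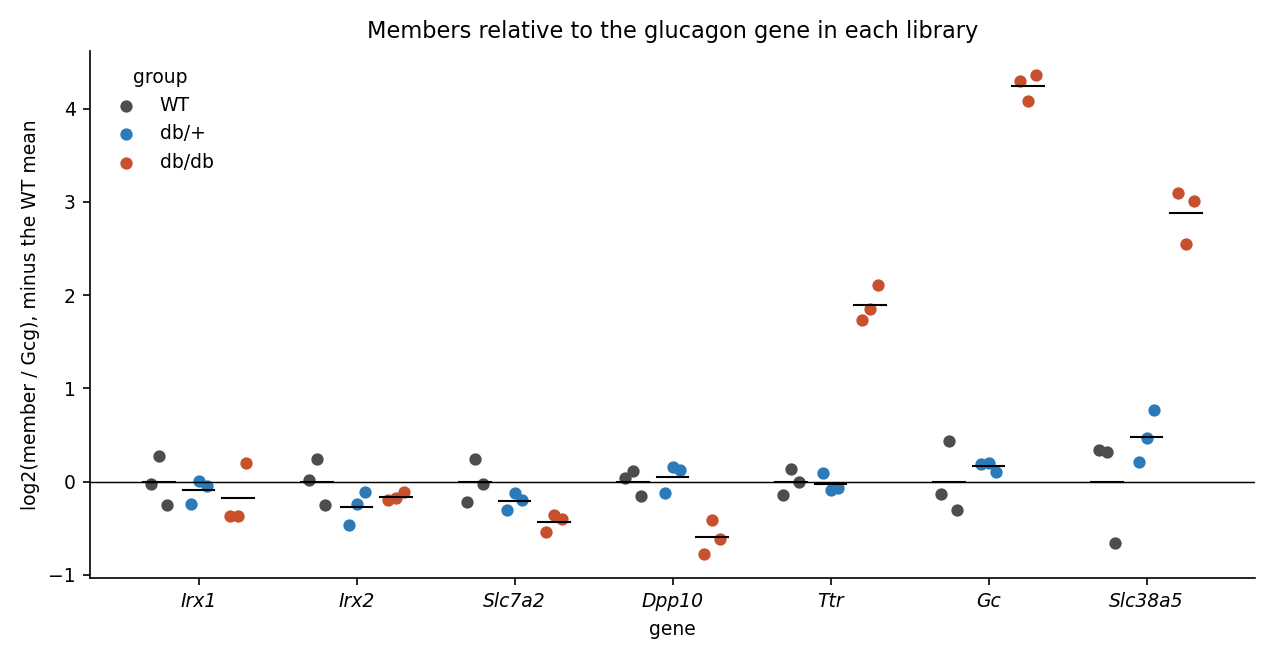
Log2 ratio of each tested marker to Gcg in every library, drawn as the difference from the WT mean, with bars at the group means (n = 3 per group). The groups overlap for Irx1 and Irx2, and the db/db mean lies at 4.25 for Gc, 2.88 for Slc38a5 and 1.90 for Ttr.

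Across the 9 libraries the levels of the 4 lower members followed that of Gcg, with Pearson r of log2 CPM of 0.958 for Dpp10, 0.938 for Slc7a2, 0.930 for Irx2 and 0.910 for Irx1. The members that were higher in db/db went the other way, with r of -0.796 for Gc, -0.636 for Slc38a5 and -0.550 for Ttr. The points share the 3 groups and the low WT 2 library, so these values are a description.

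Per kilobase of exon, and so comparable between genes, the WT level was highest for Ttr at 588 CPM per kb, followed by Slc7a2 at 70.5 and Gc at 29.3. Dpp10 (6.58), Irx2 (6.34), Irx1 (5.21) and Slc38a5 (3.59) followed with overlapping ranges, and Loxl4 was last at 0.0215. For comparison, Gcg was at 9568 CPM per kb. In db/db the order of levels was Ttr at 1271, Gc at 325, Slc7a2 at 30.5 and Slc38a5 at 14.7, then Irx2 (3.27), Irx1 (2.70) and Dpp10 (2.52), whose ranges overlapped. Gc and Slc7a2 exchanged places, and Slc38a5 moved above the Iroquois genes and Dpp10.

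In db/+ against WT, 0 of the 7 tested members passed edgeR's threshold, where 1.43% of all tested genes did. At an unadjusted p under 0.05 there were 2, Gc and Slc38a5, and DESeq2 called Gc. The db/+ libraries of Gc, at 59.5 to 74.6 CPM, all lay above the WT libraries, at 44.8 to 56.4 CPM, and the log2 fold change was 0.42 ± 0.10 (adjusted p = 0.0634, and 0.00389 to 0.279 over the other analyses). Gc passed without WT 1 (adjusted p = 0.0351) and without db/db 1 (adjusted p = 0.0442). For Slc38a5 it was 0.64 ± 0.25 (adjusted p = 0.255), with WT 1 inside the db/+ range, and without WT 1 it was 1.08 (adjusted p = 0.0209). With the acinar level as a covariate the Slc38a5 value was 0.16, the lowest over the other analyses. Of the 10 acinar markers, 0 passed edgeR's test in db/+ against WT and 8 were under an unadjusted p of 0.05. Their part in this difference was not tested. The other 5 members lay between -0.04 for Irx2 and 0.27 for Dpp10, and their groups overlapped. A p that misses the threshold does not show that the levels were equal.

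Markers of other islet cells set the same comparison in context. Of 10 beta cell markers, 1 was higher and 7 were lower in db/db against WT, while their summed level, dominated by the insulin genes, overlapped at 83874 to 121523 CPM in WT and 91969 to 125208 CPM in db/db. Of 5 delta and PP cell markers, 0 passed edgeR's test in that comparison and 1 was under an unadjusted p of 0.05. Against db/+, 1 of the 5 was lower in db/db, and in db/+ against WT 1 was higher. In db/db against WT, 2 of 7 macrophage markers and 4 of 5 endothelial markers were higher. All 6 duct markers were higher there, with a sum of 281 to 293 CPM in WT and 700 to 1226 CPM in db/db. Of all tested genes, 21.8% were higher and 19.9% lower in that comparison. The part of these other cells in the levels of the alpha cell markers was not tested.

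Factors shared by all endocrine cells moved mostly down. Of 8 tested, 5 were lower and 1, Rfx6, was higher in db/db against WT (0.74), where 19.9% of all genes were lower and 21.8% higher. Neurod1 was at -1.03 and Foxa2 at -0.84. Among 8 genes of glucagon processing and signalling, 2 were higher, Scg5, the chaperone of prohormone convertase 2 (0.88), and Cpe, the carboxypeptidase that trims peptide hormones (0.51). The 3 lower ones were Gcg, Glp1r (-1.34) and Pcsk1 (-0.42). The 3 that did not pass included Pcsk2, which encodes prohormone convertase 2 (0.21, adjusted p = 0.132). The others were Gcgr (0.13, adjusted p = 0.279) and Pcsk1n (0.16, adjusted p = 0.323).

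For each member, the 2 genes outside the set whose log2 CPM followed it most closely over the 9 libraries were taken from 9071 genes with a mean of at least 10 CPM. Gc was followed by Serpini1 and Pam, each at r = 0.998. Pam, which amidates peptide hormones, went from 972 ± 33.9 CPM in WT to 3561 ± 122 CPM in db/db. Slc7a2 was followed by Lpl, the lipoprotein lipase gene, and Fnip2, each at 0.995, and Lpl went from 118 ± 21.8 to 46.0 ± 4.43 CPM. Ttr was followed by Rps14 (0.992) and Agpat4 (0.983), and Slc38a5 by Arhgef25 (0.988) and Rap2a (0.981). The nearest genes to Irx1 were Abcb8 (0.991) and Chtf8 (0.982), to Irx2 Esco1 (0.991) and Pmpca (0.985), and to Dpp10 Fgd4 (0.987) and Rbm4b (0.986). The points share the 3 groups, and these values describe likeness of level only.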

How the data were processed

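RNA from 9 islet libraries was extracted with Trizol, depleted of ribosomal RNA with Ribo-Zero Gold and sequenced on an Illumina HiSeq instrument, per the labels' protocols. Per the submitters' processing notes, bcl2fastq 2.20.0.422 and TopHat2 2.0.14 were used with mm10. The authors deposited unnormalised read counts per gene symbol. For counting, the program, annotation and strand setting were not given in the sources read, and overlapping genes can share reads. The table has 1 further column that matches no sample and was not used.

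Genes were kept by filterByExpr and fitted with TMM factors and a term per group over all 9 libraries, using edgeR 4.0.16 (robust quasi-likelihood, two-sided, common biological coefficient of variation 0.129) in R 4.3.3, with Benjamini-Hochberg adjustment over 16826 genes. The fit was tested on simulated data. Alternatives were other size factors and low-count filters, DESeq2 1.42.0, limma-voom (limma 3.58.1), non-robust dispersion, covariates, only the compared groups, removal of ribosomal RNA rows and each library left out. Likeness used log2 CPM with a prior count of 2. Positions and promoters are RefSeq's for GRCm38.p6, the assembly of mm10. Exon lengths came from an annotation of another assembly and served for lengths only.

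The members, their lists and the naming rule were chosen with earlier results of these data known. The rule names all members, the tested genes of their families, other alpha cell genes, from longer lists the 2 higher and 2 lower genes with the smallest adjusted p against WT, and the 2 nearest genes of each member. Some genes of these lists are not reported here and were left out of the counts of other alpha cell genes.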

Additional observations from a re-analysis of the deposited data

How the results depend on the processing

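Over 22 other analyses, all 7 member calls in db/db against WT held with their directions (154 of 154 values), with log2 fold changes of 3.24 to 3.60 for Gc, 1.43 to 2.58 for Slc38a5, 0.84 to 1.34 for Ttr, -1.31 to -0.77 for Irx1, -1.19 to -0.76 for Irx2, -1.44 to -1.07 for Slc7a2 and -1.69 to -1.17 for Dpp10. In db/db against db/+, 4 of 154 calls were lost. With the first letter of the sample titles as a covariate, 2 members were lower, and Irx1 (-0.96, adjusted p = 0.0740), Irx2 (-0.78, 0.0906) and Ttr (0.63, 0.247) no longer passed. All db/+ libraries carry 1 letter and all db/db the other, so this fit rests on the WT libraries. With summed Y-linked CPM, Ttr was at 0.58 (adjusted p = 0.128). That fit rests largely on db/db 1 against the other db/db libraries, since the Y-linked level varied little within WT and db/+. In db/+ against WT, 1 member was higher without a low-count filter and with DESeq2, and 0 to 2 with 1 library left out, 2 of them without WT 1 and 1 without db/db 1. Of the other alpha cell genes, those higher in db/db against WT numbered 1 with the acinar covariate, the first letter or limma-voom, and 1 to 3 with 1 library left out. Those lower numbered 1 with the acinar covariate, under which Gcg and Avpr1b were lost, and Gcg was also lost with the Y-linked covariate. Against db/+, 1 was higher with the acinar covariate, with only 2 groups in the fit or with limma-voom, 0 with the first letter, and 1 to 3 with 1 library left out. Differences that passed no test could change sign. In db/+ against WT these were Plce1 (-0.0604) with the acinar covariate and Pou3f4 (0.26) with the Y-linked covariate. With 1 library left out, that comparison ran from -0.18 to 0.17 for Irx2, -0.0946 to 0.12 for Slc7a2, -0.0048 to 0.39 for Gcg, -0.25 to 0.12 for Pou3f4, -0.60 to 0.11 for Fap, -0.0588 to 0.43 for Plce1 and -0.19 to 0.12 for Smarca1. Its ratios to Gcg ran from -0.22 to 0.0475 for Irx1, -0.0917 to 0.0491 for Ttr and -0.0277 to 0.14 for Dpp10, and the Irx1 ratio in db/db against db/+ from -0.28 to 0.0055. The cause of these changes was not tested. No paired analysis was possible because the replicate numbers follow accession order and pair no libraries. Loxl4 cannot be resolved at this depth, and Irx3, Pou3f4 and Fap rest on few counts.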
